A study of Homo sapiens with 18 samples.

Results

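The mitochondrial chromosome (MT) carried 37 of the 58302 genes in the expression tables of the study, and all 37 were taken because the tables place them on MT. They were 13 mRNAs, 2 rRNAs and 22 tRNAs, and their positions matched GENCODE release 44 on hg38 for all 37. RNA had been sequenced from 3 lung cancer cell lines with stable knockdown of SYK, a cytoplasmic tyrosine kinase, to ask how its loss changes the cells. EBC-1 has an amplified MET gene, and the EGFR-mutant lines PC-9 and HCC827 carry a deletion in EGFR exon 19. In each line, 3 libraries came from cells with a lentiviral shRNA against SYK (shSYK) and 3 from cells with a negative control (nc), 18 libraries in all. The sources name a single shRNA clone and do not describe the control construct, so the effect of the clone and that of SYK cannot be told apart. The labels number the replicates without saying that they are separate cultures, so the p-values measure only the spread between these libraries.

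Mitochondrial DNA is transcribed from both strands as long precursor RNAs by a nuclear-encoded polymerase, POLRMT. Most mRNAs and both rRNAs are separated by tRNAs, and excision of the tRNAs at their 5′ and 3′ ends releases the RNAs between them. All 13 proteins are subunits of the respiratory chain or of ATP synthase, and the rRNAs and tRNAs serve the ribosome inside the organelle, so every class is needed to make them. Levels of the mature RNAs are also set by protection and polyadenylation, in which the LRPPRC and SLIRP proteins take part.

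Levels are given as FPKM (fragments scaled to gene length and library size), as the authors deposited them, and as reads recovered from them. The library size behind the FPKM was not the sum of reads on genes but 0.883 to 1.07 times that sum. In EBC-1, it was 0.978, 1.01 and 0.969 times the sum in nc and 1.04, 1.03 and 1.07 times in shSYK. A larger size lowers every FPKM of its library. Each library held 7920099 to 15729103 reads on genes. Mitochondrial genes took 1.89 to 2.51% of these reads in EBC-1, 1.99 to 3.13% in PC-9 and 2.79 to 3.63% in HCC827. SYK, the targeted gene, had 14.2 ± 1.07 FPKM (SD, n = 3) in EBC-1 nc and 7.43 ± 0.189 in shSYK, 6.51 ± 0.698 and 2.09 ± 0.389 in PC-9, and 9.08 ± 0.649 and 2.99 ± 0.472 in HCC827. Of the markers, EPCAM had 58.9 to 121 FPKM over all libraries, and the leukocyte gene PTPRC and the fibroblast gene COL3A1 had at most 0.144 and 0.0147. The collagen gene COL1A1, also listed as a fibroblast marker, had 0.945 to 8.29 FPKM, with 6.83 ± 1.43 in PC-9 nc and 6.69 ± 0.801 in PC-9 shSYK, and its part in the results was not tested. The endothelial marker PECAM1 had 13.4 ± 0.903 FPKM in PC-9 nc and 4.98 ± 0.601 in PC-9 shSYK, and at most 0.215 in EBC-1 and HCC827, and its part in the PC-9 results was not tested. Several libraries stood apart from their group in mitochondrial reads. In PC-9 nc, replicate 1 had the lowest mRNA share and replicate 2 the highest. In HCC827 shSYK, replicate 1 was low in mRNA and replicate 2 high in tRNA. In bulk RNA, fewer mitochondria or cells and less RNA in each cannot be told apart.

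In EBC-1, the mRNA share was lower and the rRNA share higher in every shSYK library than in any nc library. The 13 mRNAs took 2.02, 2.24 and 2.03% of the reads in the nc libraries and 1.56, 1.58 and 1.54% in the shSYK libraries. The mean was 2.10 ± 0.126% in nc and 1.56 ± 0.0157% in shSYK, or 74.3% of the nc share. The 2 rRNAs went the other way in the same libraries, from 0.222 ± 0.0266% to 0.338 ± 0.0249%, and the tRNAs had 0.0172 ± 0.000668% in nc and 0.0147 ± 0.00125% in shSYK. None of these 3 classes overlapped between groups, and each had an exact permutation p of 0.1 (two-sided), below which 3 libraries against 3 cannot go. Counting error was small beside this, with 95% Wilson intervals of at most 0.011 percentage points to either side for the mRNAs and 0.0016 for the tRNAs, which cover counting error only.

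In PC-9, the class shares overlapped between groups. The mRNAs took 1.25, 1.98 and 1.62% of reads in nc and 1.4998, 1.43 and 1.20% in shSYK (exact permutation p = 0.4), so the spread among the nc libraries was wider than the difference. The rRNA share was 0.929 ± 0.206% in nc and 0.988 ± 0.135% in shSYK (exact permutation p = 0.7), and the tRNA share 0.0175 ± 0.00673% and 0.0200 ± 0.00536% (exact permutation p = 0.7). The log2 difference of the mRNA share, -0.21, ran from -0.39 without nc replicate 1 to -0.05 without nc replicate 2.

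In HCC827, the mRNA share was 2.54, 2.46 and 2.33% in nc and 2.004, 2.72 and 2.70% in shSYK (exact permutation p = 1). Its log2 difference was 0.0046 with all libraries and 0.15 without shSYK replicate 1. The rRNA share did not overlap, at 0.686 ± 0.0265% in nc and 0.781 ± 0.0412% in shSYK (exact permutation p = 0.1). The tRNA share was 0.0346 ± 0.00241% in nc, and in shSYK it was 0.0495, 0.0781 and 0.0294%, a spread that included the nc values (exact permutation p = 0.4). Without shSYK replicate 2, its log2 difference fell from 0.49 to 0.14.

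**Figure D1:**
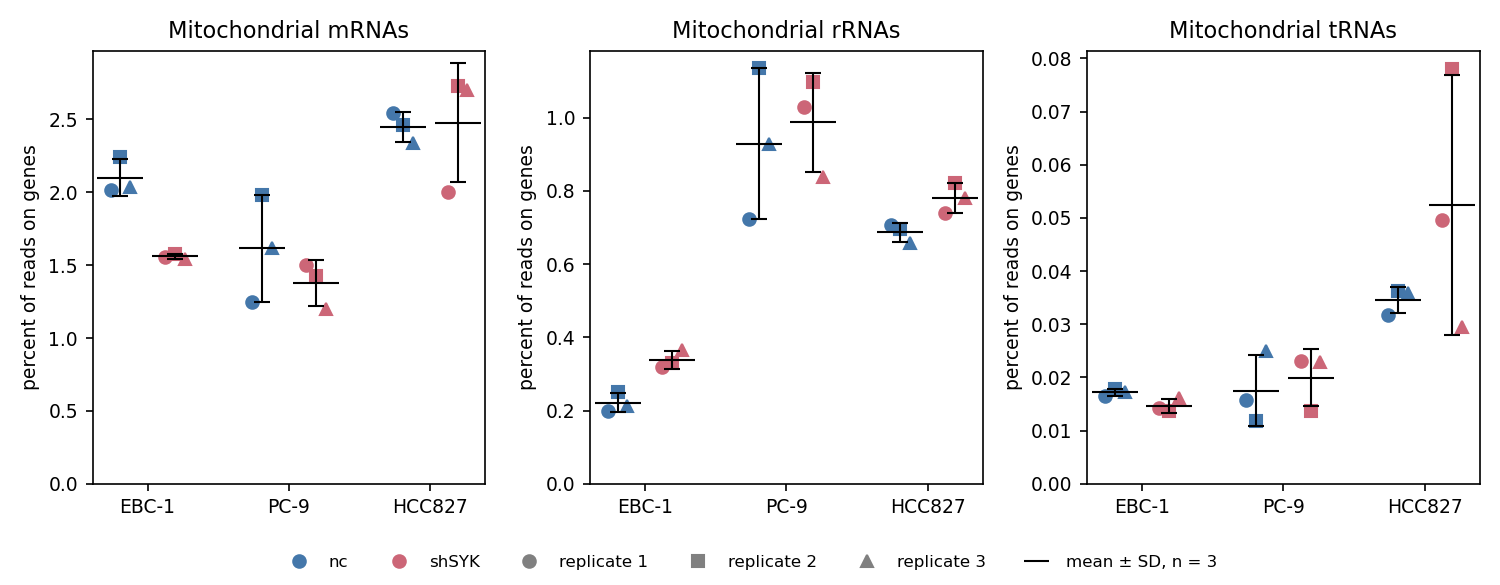
Share of the reads on genes (percent, y axis) taken by the mitochondrial mRNAs, rRNAs and tRNAs in the nc and shSYK libraries of each line (points), with mean ± SD, n = 3 (bars). The 3 classes do not overlap between groups in EBC-1, the rRNAs do not overlap in HCC827, and the tRNA share of HCC827 shSYK replicate 2 stands at 0.0781%.

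Levels per length of the rRNAs and mRNAs in nc cells are given next, as a description. In EBC-1 nc, the mRNAs of cytochrome c oxidase led, with MT-CO1 at 6322 ± 211 FPKM, MT-CO2 at 3009 ± 135 and MT-CO3 at 2177 ± 85.3, followed by MT-ATP6 at 1853 ± 139.7. The lowest pair were MT-ATP8 at 252 ± 23.7 and MT-RNR1 at 242 ± 9.66, whose libraries overlapped. MT-ND1, MT-ND5, MT-ND2 and MT-ND6, at 673, 664, 632 and 601 FPKM, also overlapped their neighbours in the order, whereas MT-CO1, MT-CO2, MT-CO3 and MT-ATP6 did not overlap one another.

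In PC-9 nc, MT-RNR2 was highest at 5353 ± 756 FPKM and overlapped MT-ND3 at 4532 ± 300.4. MT-CO1 at 2873 ± 484 overlapped MT-CO2 at 2385 ± 128, and MT-ND4, MT-CO3, MT-ND4L and MT-ATP6, between 1860.0 and 1604, each overlapped the next. In HCC827 nc, MT-CO2 led at 5908 ± 176 FPKM, then MT-CO1 at 4876 ± 219.9, MT-ND3 at 4440.0 ± 274 and MT-RNR2 at 4177 ± 147, of which only MT-ND3 and MT-RNR2 overlapped. MT-ATP8 was lowest in PC-9 and HCC827, at 25.4 ± 5.86 and 41.8 ± 4.43 FPKM. MT-ND3, a small subunit of complex I, had 855 ± 40.6 FPKM in EBC-1 nc. Each line has a table of its own, so line and table cannot be told apart in these levels, and no test was made between them.

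**Figure D2:**
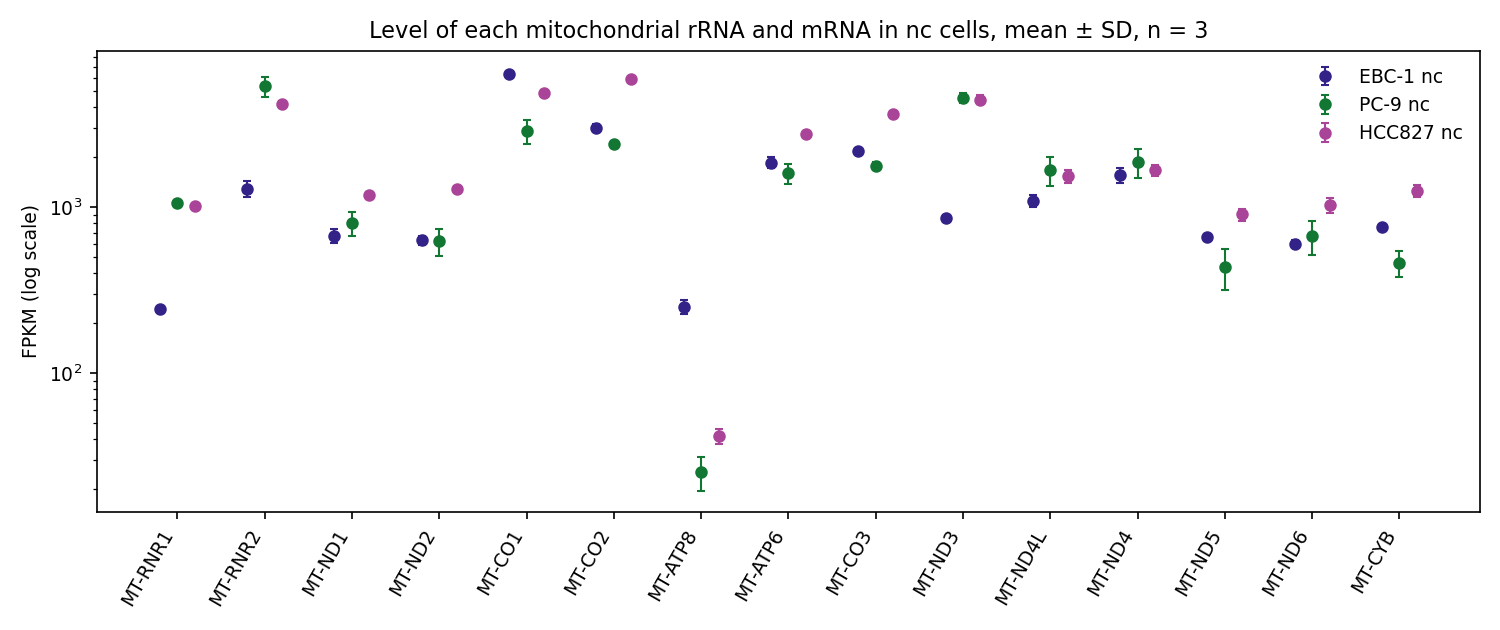
Level per length (FPKM, log y axis) of the 2 rRNAs and 13 mRNAs in nc cells of each line, in gene order, as mean ± SD, n = 3. MT-RNR1, MT-RNR2 and MT-ND3 are lower in EBC-1 than in the other lines, and MT-ATP8 is higher, at 252 against 25.4 and 41.8 FPKM.

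MT-ATP8 cannot be read apart from its neighbour. It lies at MT:8366-8572, and its last 46 bases are also the start of MT-ATP6 (MT:8527-9207, plus strand). The shared stretch is shown because reads from it can be given to either gene, and the capitals mark the start codon of MT-ATP6:
MT-ATP6 and MT-ATP8 overlap: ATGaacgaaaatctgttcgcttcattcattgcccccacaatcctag
Between 22 and 75 reads per PC-9 library were counted for MT-ATP8, beside 7099 to 14531 for MT-ATP6. MT-ND4L and MT-ND4 share 7 bases, and MT-ATP6 and MT-CO3 share 1.

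The 2 rRNAs are the RNA scaffold of the mitochondrial ribosome, 12S rRNA (MT-RNR1) in the small subunit and 16S rRNA (MT-RNR2) in the large one. The deposited FPKM of MT-RNR1 (MT:648-1601, plus strand) in EBC-1 were 234, 253 and 240.0 in nc and 517, 559 and 592 in shSYK, a rise to 229% of the nc level. Its log2 fold change was 1.19 ± 0.07 SE (adjusted p = 6.86e-05 by limma). The groups did not overlap, and the rise kept its call under all 17 alternatives. MT-RNR2 (MT:1671-3229, plus strand) rose less, from 1169, 1445 and 1263 FPKM to 1649, 1698 and 1825 (log2 fold change 0.42 ± 0.09 SE, adjusted p = 0.00804 by limma), and it was not called without the filter on low genes (adjusted p = 0.18). Both rRNAs were thus called higher in EBC-1, where 23.1% of the 12430 genes tested were called higher.

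In HCC827, MT-RNR1 rose from 1027, 986 and 1017 FPKM in nc to 1197, 1404 and 1339.5 in shSYK (log2 fold change 0.38 ± 0.08 SE, adjusted p = 0.00757 by limma). Without the filter on low genes its adjusted p was 0.081. Of the 11999 genes tested in HCC827, 17.2% were called higher. In PC-9, it had 1030.2, 1102 and 1062 FPKM in nc and 1299, 1386 and 1197 in shSYK, again without overlap, but did not pass the test (log2 fold change 0.28 ± 0.11 SE, adjusted p = 0.297 by limma). In PC-9, 0.678% of 12089 genes were called higher and none of them was mitochondrial. By limma, 1 of the 2 rRNAs of PC-9, MT-RNR1, had an unadjusted p under 0.05, as did 1881 of the 12089 genes, and limma-voom called neither rRNA. MT-RNR2 had log2 fold changes of 0.10 in PC-9 and 0.08 in HCC827, with adjusted p of 0.843 and 0.477. The rise of MT-RNR1 in EBC-1 and HCC827 and of MT-RNR2 in EBC-1 kept its sign under each scaling of the libraries tried.

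The ratio of MT-RNR1 to MT-RNR2 does not depend on how a library is scaled to nuclear genes. In EBC-1, it was 0.200, 0.175 and 0.190 in nc and 0.314, 0.329 and 0.324 in shSYK. The PC-9 libraries overlapped, with 0.201 ± 0.0217 (nc) and 0.228 ± 0.0132 (shSYK), and those of HCC827 did not, with 0.242 ± 0.00729 and 0.298 ± 0.0143. RNAs without a poly(A) tail did not move in a shared direction in these libraries. RN7SL2, a signal recognition particle RNA, took 0.0494 to 0.0631% of reads in EBC-1 nc and 0.0665 to 0.127% in shSYK, whereas replication-dependent histone mRNAs took 0.0332 to 0.0356% in nc and 0.0267 to 0.0295% in shSYK. In HCC827, RN7SL2 overlapped, at 0.0226 to 0.0313% in nc and 0.0246 to 0.0534% in shSYK, and histone mRNAs took 0.0138 to 0.0147% and 0.0182 to 0.0191%. Both overlapped in PC-9, with RN7SL2 at 0.0236 to 0.0469% in nc and 0.0322 to 0.0512% in shSYK. Histone mRNAs took 0.00361 to 0.00426% and 0.00363 to 0.0044% there. RN7SL2 is the only small RNA of this kind given here. Whether RNA was selected by its poly(A) tail or by removal of rRNA is not given in the sources used here. The part of library preparation in the rRNA values was not tested.

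Of the 13 mRNAs, 12 fell in EBC-1, 1 fell in PC-9 and 2 fell in HCC827, and none rose in any line. Over the whole tables of EBC-1, PC-9 and HCC827, 21.6, 1.41 and 20.7% of genes were called lower. Across EBC-1, PC-9 and HCC827, the median log2 fold change of the 13 mRNAs was -0.50, -0.28 and -0.05, beside 0.0090, 0.0088 and -0.0053 for all genes tested. The 12 calls in EBC-1 depend in part on how the libraries are scaled, and not only for the genes with small changes. Over all genes of EBC-1, 2686 were called lower and 2876 higher, with 171 and 82 for PC-9, and 2488 and 2066 for HCC827. Rescaling to an equal sum (TPM) gave 1901 and 4019 for EBC-1, with 1905 and 2482 for HCC827, and an equal sum of nuclear genes gave 402 and 115 in PC-9. TPM rescaling moved the median of all genes in EBC-1 to 0.12 and left 9 of 13 mRNAs called lower, without MT-ND1, MT-ND5 and MT-ND6. Quantile normalization left 5 called lower, without these genes and also without MT-CO1, MT-CO2, MT-ATP6 and MT-ND4L. With limma-voom on the recovered reads, a test of counts, 12 mRNAs of EBC-1, 1 of PC-9 and 4 of HCC827 were called lower (for HCC827 MT-CYB, MT-ND3, MT-ATP6 and MT-CO3). By that test, 17.1, 1.38 and 16.8% of all genes were called lower in these lines, and 17.3, 0.581 and 14.6% higher.

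**Figure D3:**
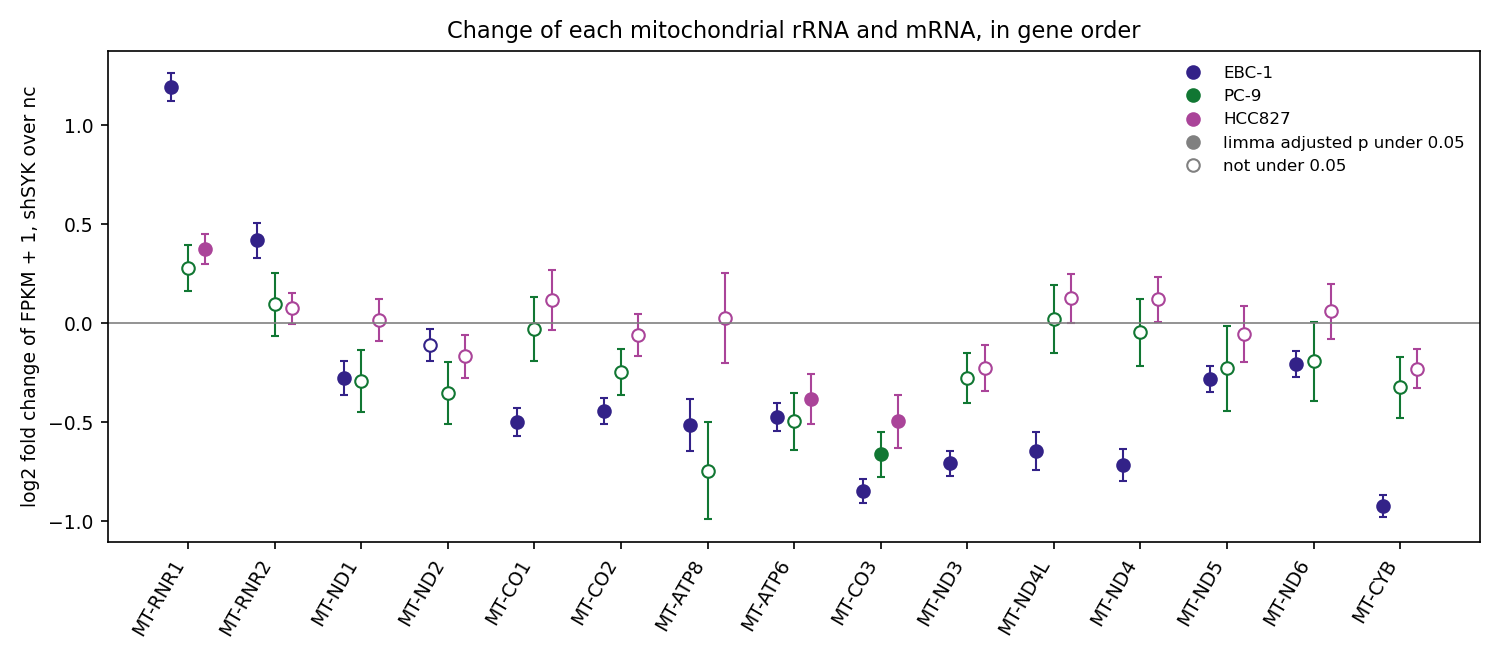
log2 fold change of FPKM + 1, shSYK over nc (y axis), of the 2 rRNAs and 13 mRNAs in their order along the chromosome, for each line, with bars of 1 standard error. Filled points have a limma adjusted p under 0.05. MT-RNR1 stands highest, at 1.19 in EBC-1, and MT-CO3 is filled and below 0 in all 3 lines, at -0.85, -0.66 and -0.50.

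The mRNAs of complex IV, cytochrome c oxidase, include the 1 mRNA that passed the test in every line. MT-CO3 (MT:9207-9990, plus strand) encodes the third core subunit. In EBC-1, it had 2227, 2226 and 2079 FPKM in nc and 1217, 1240.3 and 1172 in shSYK, 55.6% of the nc level (log2 fold change -0.85 ± 0.06 SE, adjusted p = 0.000119 by limma). In PC-9, it had 1704, 1867 and 1738 FPKM in nc and 1183, 1129.8 and 1043 in shSYK, or 63.2% (log2 fold change -0.66 ± 0.11 SE, adjusted p = 0.0373 by limma). In HCC827, it had 3661, 3488 and 3696 FPKM in nc and 2047, 2861 and 2876 in shSYK, or 71.8% (log2 fold change -0.50 ± 0.14 SE, adjusted p = 0.0245 by limma). The groups did not overlap in any line. The PC-9 call was lost without nc replicate 3 or any of the shSYK replicates, and the HCC827 call without nc replicate 1 or 3, with adjusted p reaching 0.398 and 0.22 over all alternatives. Its log2 fold change stayed below 0 under all of them.

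MT-CO1 and MT-CO2, the subunits that hold the metal centres of the oxidase, fell in EBC-1 and passed the test in neither of the other lines. MT-CO1 (MT:5904-7445) had 6088, 6498 and 6379.7 FPKM in EBC-1 nc and 4644, 4688 and 4125 in shSYK (log2 fold change -0.50, adjusted p = 0.00169 by limma), a call lost without the filter on low genes (adjusted p = 0.448) and under quantile normalization, which sets the change of this top-ranked gene to 0. Its log2 fold change was -0.03 in PC-9 and 0.12 in HCC827, with adjusted p of 0.967 and 0.571. In HCC827 shSYK, MT-CO1 was 4117 FPKM in replicate 1 and 6054 and 5938 in the others, and without replicate 1 it was called higher (adjusted p = 0.030 by limma). MT-CO2 (MT:7586-8269) had 3009 ± 135 and 2215 ± 111 FPKM in EBC-1 (log2 fold change -0.44, adjusted p = 0.00207 by limma), and the same settings took this call away (adjusted p = 0.257 and 0.0714). In PC-9, MT-CO2 did not overlap, at 2275, 2526 and 2354 FPKM in nc and 2153, 2009 and 1885 in shSYK, yet did not pass the test (adjusted p = 0.372 by limma).

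The mRNAs of complex V encode MT-ATP6, part of the proton channel of ATP synthase, and MT-ATP8, a small membrane subunit. MT-ATP6 had 1808, 2010.0 and 1742 FPKM in EBC-1 nc and 1313, 1368 and 1313 in shSYK (log2 fold change -0.47 ± 0.07 SE, adjusted p = 0.00198 by limma), again not called without the filter or under quantile normalization (adjusted p = 0.119 and 0.0952). In HCC827, it had 2880.3, 2713 and 2679 FPKM in nc and 1728, 2364 and 2319 in shSYK (log2 fold change -0.38 ± 0.13 SE, adjusted p = 0.0464 by limma), a call that 10 of 17 alternatives took away, among them leaving out any nc replicate or shSYK replicate 3 (adjusted p up to 0.288). In PC-9, it had 1401, 1836 and 1576 FPKM in nc and 1231, 1146 and 1027 in shSYK, without overlap and without a call (log2 fold change -0.49, adjusted p = 0.151 by limma). Without nc replicate 1 it was called. MT-ATP8 fell in EBC-1 (log2 fold change -0.51, adjusted p = 0.0173 by limma, not called without nc replicate 1 or shSYK replicate 1 or 2), and its values of -0.74 in PC-9 and 0.03 in HCC827 rest on at most 140 reads per library.

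MT-CYB (MT:14747-15887, plus strand) encodes cytochrome b, the only complex III subunit made in the organelle, and had the largest fall of the 13 mRNAs in EBC-1. Its FPKM were 742, 793 and 752 in nc and 397, 402 and 406 in shSYK, 52.7% of the nc level (log2 fold change -0.92 ± 0.06 SE, adjusted p = 7.51e-05 by limma). In PC-9, it had 381, 543 and 459.9 FPKM in nc and 391, 368 and 338 in shSYK (log2 fold change -0.32, adjusted p = 0.373 by limma). In HCC827, it had 1251 ± 100.3 and 1068 ± 111 FPKM (log2 fold change -0.23, adjusted p = 0.105 by limma).

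Complex I, NADH dehydrogenase, takes 7 of the mRNAs, and 6 of them fell in EBC-1. MT-ND4 (MT:10760-12137) and MT-ND4L (MT:10470-10766), which overlap and are carried on 1 mRNA, had log2 fold changes of -0.72 and -0.64 (limma adjusted p = 0.000708 and 0.002), of which MT-ND4L was not called under quantile normalization (adjusted p = 0.254). MT-ND4 had 1451, 1744 and 1485 FPKM in EBC-1 nc and 959, 932 and 949.7 in shSYK. MT-ND3 (MT:10059-10404) fell from 855 ± 40.6 to 523 ± 19.7 FPKM (log2 fold change -0.71, adjusted p = 0.000326 by limma). MT-ND1 (MT:3307-4262), MT-ND5 (MT:12337-14148) and MT-ND6 (MT:14149-14673, minus strand) fell less, with log2 fold changes of -0.28, -0.28 and -0.21 (limma adjusted p = 0.0354, 0.012 and 0.0364), and under quantile normalization all 3 stood slightly above 0. MT-ND1 lost its call without nc replicate 2 or 3 or shSYK replicate 1 or 2, MT-ND5 without shSYK replicate 1, and MT-ND6 without any 1 library other than nc replicate 2, with adjusted p up to 0.66, 0.559 and 0.436 over all alternatives. MT-ND2 (MT:4470-5511) was the mRNA not called, at 632 ± 39.0 FPKM in nc and 586 ± 46.5 in shSYK (log2 fold change -0.11, adjusted p = 0.298 by limma).

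In the EGFR-mutant lines, none of the 7 complex I mRNAs passed the test by limma, and by limma-voom MT-ND3 was called lower in HCC827 (adjusted p = 0.0211). Their log2 fold changes lay between -0.35 (MT-ND2) and 0.02 (MT-ND4L) in PC-9 and between -0.22 (MT-ND3) and 0.13 (MT-ND4L) in HCC827. MT-ND1 had 801 ± 127 FPKM in PC-9 nc and 651 ± 65.7 in shSYK, and 1177 ± 50.2 and 1199 ± 162 in HCC827. MT-ND2 had 626 ± 116 and 486 ± 32.8 FPKM in PC-9, without overlap, and 1290.4 ± 53.9 and 1157 ± 164 in HCC827. MT-ND4 had 1860.0 ± 365 and 1784 ± 169 FPKM in PC-9 and 1665 ± 126 and 1819 ± 249.6 in HCC827, and MT-ND4L had 1676 ± 336 and 1684 ± 162, and 1534 ± 130.4 and 1685 ± 258. None of these had an adjusted p under 0.257. MT-ND5 had 438 ± 122 and 366 ± 47.2 FPKM in PC-9 and 902 ± 75.1 and 879 ± 171 in HCC827, and MT-ND6 had 669.9 ± 158 and 579 ± 83.2, and 1029 ± 104 and 1082 ± 193. MT-ND3 did not overlap between groups in either line. Its FPKM were 4858, 4267 and 4469 in PC-9 nc and 4108, 3735 and 3396 in shSYK, and 4413, 4181 and 4726 in HCC827 nc and 3222, 4145 and 4095 in shSYK, with limma adjusted p of 0.353 and 0.163, and under quantile normalization it was called in HCC827 (adjusted p = 0.0388). MT-ND6 is the only mRNA on the minus strand. The use of strand in counting is not given in the sources used here, so reads of MT-ND6 and of RNA antisense to it cannot be told apart.

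Along the chromosome, the log2 fold changes of the 14 rRNA and mRNA genes on the plus strand were lower the farther their start lay from that of MT-RNR1 in EBC-1. Spearman's rho with the start position was -0.78 there, -0.23 for PC-9 and -0.31 for HCC827. Over the 12 plus-strand mRNAs alone, it was -0.66, 0.22 and -0.06. These are descriptions across neighbouring genes of the same libraries, and genes are not replicates. The order of the 15 changes was more alike between PC-9 and HCC827 (rho = 0.81) than between EBC-1 and PC-9 (0.39) or HCC827 (0.36), which is likewise a description.

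Ratios between mitochondrial mRNAs, chosen after their levels had been seen, put MT-CO3 lower relative to MT-CO1 in all 3 lines. The ratio of FPKM was 0.366, 0.343 and 0.326 in EBC-1 nc and 0.262, 0.265 and 0.284 in shSYK. PC-9 had ratios of 0.714, 0.557 and 0.604 (nc) and 0.390, 0.388 and 0.423 (shSYK). HCC827 had 0.714, 0.737 and 0.776 (nc) and 0.497, 0.473 and 0.484 (shSYK). No shSYK library reached an nc library of its line, and the mean ratio in shSYK was 78.4, 64.1 and 65.3% of that in nc. The single library that stood apart in HCC827 by its total, shSYK replicate 1, did not stand apart in this ratio.

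MT-ATP6 relative to MT-CO1 did not overlap in the EGFR-mutant lines. The ratio was 0.561 ± 0.0229 for nc and 0.405 ± 0.0118 for shSYK cells of PC-9, and 0.566 ± 0.00656 and 0.400 ± 0.0168 for those of HCC827. The EBC-1 values, 0.293 ± 0.0185 and 0.298 ± 0.0185, overlapped (exact permutation p = 0.8). MT-CO2 over MT-CO1 was 0.476 ± 0.0232 and 0.494 ± 0.0174 in EBC-1, 0.842 ± 0.102 and 0.721 ± 0.0388 in PC-9, with overlap, and 1.21 ± 0.0189 and 1.07 ± 0.101 in HCC827, without. The rRNA part of all mitochondrial reads was higher in every shSYK library than in any nc library of its line. It was 9.46 ± 0.520 and 17.7 ± 1.17% for EBC-1, 36.3 ± 0.131 and 41.4 ± 1.60% for PC-9, and 21.7 ± 0.0937 and 23.8 ± 2.33% for HCC827. In HCC827, shSYK replicate 1 stood apart at 26.5%, beside 22.7 and 22.3% in the others, and without it the log2 difference fell from 0.13 to 0.05. Each of the differences without overlap has an exact two-sided permutation p = 0.1, the smallest this design allows.

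**Figure D4:**
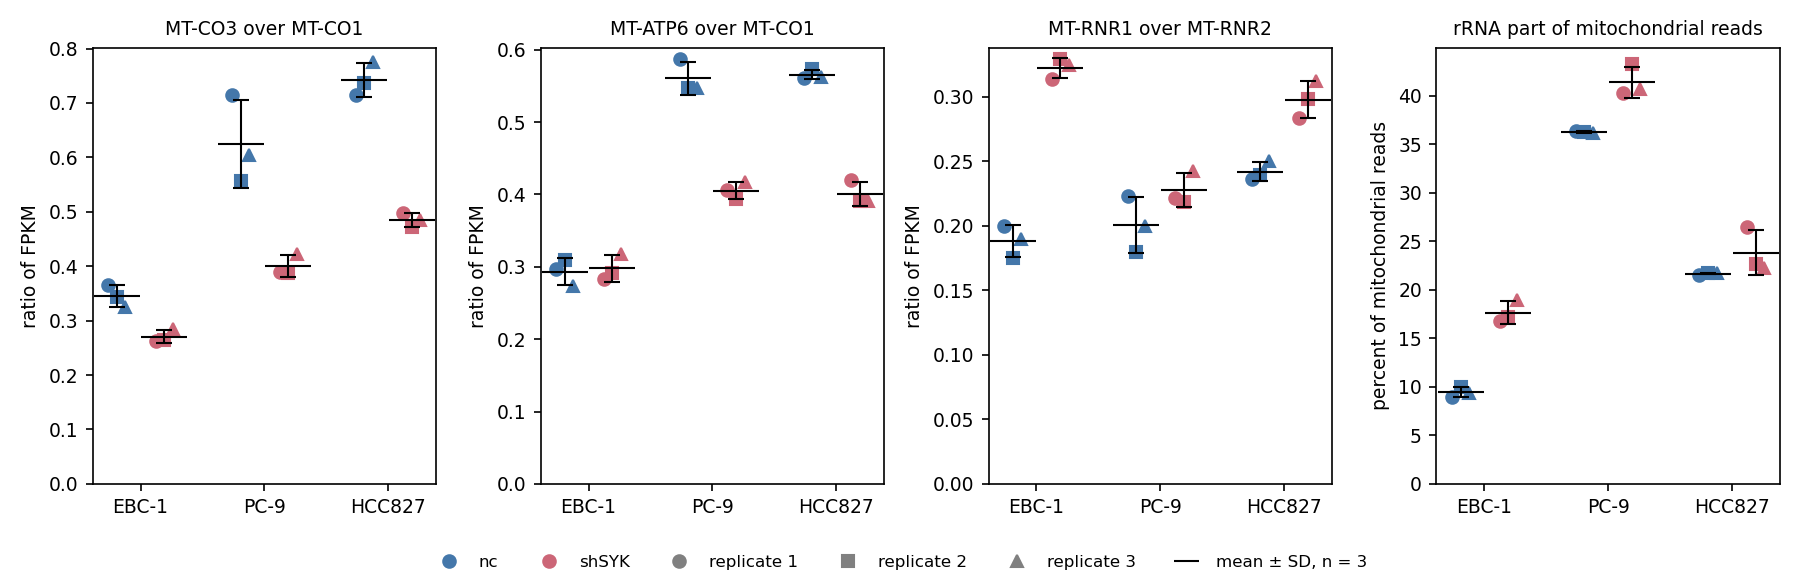
Ratios of FPKM within the mitochondrial RNAs and the rRNA part of mitochondrial reads in percent (y axes) for each nc and shSYK library (points), with mean ± SD, n = 3 (bars). MT-CO3 over MT-CO1 is lower and the rRNA part higher in the shSYK libraries of all 3 lines without overlap, and MT-ATP6 over MT-CO1 is lower without overlap in PC-9 and HCC827 and overlaps in EBC-1 (means of 0.293 and 0.298).

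Within the reads of the 13 mRNAs, the part of MT-CO3 was lower in all 3 lines. MT-CO3 made up 8.02 ± 0.389% of mRNA reads in EBC-1 nc and 6.37 ± 0.016% in shSYK, 8.60 ± 0.787 and 6.22 ± 0.213% in PC-9, and 10.6 ± 0.446 and 7.89 ± 0.270% in HCC827, without overlap in any line. MT-CO1 made up 45.8 ± 0.960 and 46.4 ± 1.98% in EBC-1, with overlap, but 27.1 ± 0.987 and 30.6 ± 0.477% in PC-9 and 28.2 ± 0.240 and 32.0 ± 1.52% in HCC827. MT-ND4 made up a smaller part in EBC-1 shSYK, 10.1 ± 0.616 and 8.77 ± 0.328%, and a larger part in PC-9, 15.7 ± 1.02 and 17.4 ± 0.163%, and in HCC827, 8.61 ± 0.479 and 9.77 ± 0.289%, each without overlap.

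The tRNAs were measured through few reads. The 22 genes are 59 to 75 bases long, and whether their reads came from tRNAs or from longer precursors was not tested. Reads recovered from FPKM are given here, since 1 read weighs heavily in the FPKM of a gene this short. In EBC-1, 14 tRNAs had a mean of at least 10 reads per library, in PC-9 7 and in HCC827 9. The others had 0 to 15, 0 to 16 and 0 to 22 reads in any library, and 2 had no read in PC-9. A level of 3 reads per library was taken as the floor.

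MT-TN, MT-TC and MT-TP, the tRNAs for asparagine, cysteine and proline, held 71.7 to 82.5% of all tRNA reads in EBC-1, 78.1 to 95.5% in PC-9 and 90.1 to 95.5% in HCC827. All 3 are on the minus strand, which holds 8 of the 22 tRNAs. Their sequences are shown because they carry most of the tRNA signal, in the sense of the tRNA from the hg38 chromosome, with the anticodon in capitals and without the CCA end that is added later:
MT-TN, MT:5657-5729, minus strand: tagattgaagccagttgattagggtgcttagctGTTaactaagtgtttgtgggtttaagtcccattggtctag
MT-TC, MT:5761-5826, minus strand: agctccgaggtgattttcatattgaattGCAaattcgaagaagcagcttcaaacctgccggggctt
MT-TP, MT:15956-16023, minus strand: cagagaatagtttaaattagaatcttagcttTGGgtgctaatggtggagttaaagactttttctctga

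In EBC-1, the reads of MT-TN were 598, 634 and 545 in nc and 692, 458 and 619 in shSYK, and those of MT-TC 680, 690 and 564 in nc and 763, 561 and 653 in shSYK, and neither passed the test (limma adjusted p = 0.211 and 0.333). MT-TP had 446, 388 and 402 reads in EBC-1 nc and 388, 241 and 315 in shSYK, whose FPKM were lower in every shSYK library (log2 fold change -0.52 ± 0.08 SE, adjusted p = 0.00184 by limma). In HCC827, MT-TP went the other way, with 309, 472 and 482 reads in nc and 581, 634 and 610 in shSYK (log2 fold change 0.44 ± 0.07 SE, adjusted p = 0.00228 by limma). In PC-9, it had 328, 469 and 414 reads in nc and 511, 596 and 370 in shSYK (adjusted p = 0.917 by limma).

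MT-TN and MT-TC varied widely between replicates of the EGFR-mutant lines. MT-TN had 699, 353 and 1563 reads in PC-9 nc and 1812, 797 and 1578 in shSYK. In HCC827, MT-TN had 1479, 2661 and 2652 reads in nc and 3165, 4822 and 1821 in shSYK, and MT-TC 502, 928 and 893 in nc and 1170, 2909 and 587 in shSYK. The groups overlapped in each case, and no call was made for either gene in these lines with all libraries. Without shSYK replicate 3 of HCC827, both were called higher (adjusted p = 0.0218 and 0.0367 by limma). The high tRNA share of HCC827 shSYK replicate 2 was that of these 2 genes, with 4822 and 2909 reads.

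In 7 places a plus-strand tRNA is the only one of its strand between consecutive plus-strand rRNA or mRNA genes. Of these, MT-TV, MT-TL1, MT-TW, MT-TD and MT-TK were called lower in EBC-1, where 21.6% of all genes were, and MT-TG and MT-TR were not called. Minus-strand tRNAs also lie beside MT-TW and MT-TD. MT-TH, MT-TS2 and MT-TL2, which lie together between MT-ND4 and MT-ND5, are outside this set and were not called. MT-TD and MT-TV are shown as the tRNAs between MT-CO1 and MT-CO2 and between the rRNAs, again with the anticodon in capitals:
MT-TD, MT:7518-7585, plus strand: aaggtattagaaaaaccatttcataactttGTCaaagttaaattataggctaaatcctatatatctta
MT-TV, MT:1602-1670, plus strand: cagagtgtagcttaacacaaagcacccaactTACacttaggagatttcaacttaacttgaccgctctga

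MT-TD, the tRNA for aspartate, had 42, 33 and 39 reads in EBC-1 nc and 2, 2 and 6 in shSYK, a fall (adjusted p = 0.000374 by limma) for which no fold is given, since 2 of the shSYK libraries were under the floor. MT-TV, the tRNA for valine, had 21, 12 and 18 reads in nc and 1, 3 and 8 in shSYK (adjusted p = 0.0125 by limma, and 0.0595 without the filter on low genes). MT-TL1, a tRNA for leucine between MT-RNR2 and MT-ND1, had 73, 94 and 69 reads in nc and 37, 16 and 27 in shSYK (log2 fold change -1.70 ± 0.19 SE, adjusted p = 0.000709 by limma). MT-TM, the tRNA for methionine, had 14, 21 and 23 reads in nc and 4, 3 and 4 in shSYK (adjusted p = 0.000362 by limma). All 4 were lower in every shSYK library of EBC-1 than in any of its nc libraries. How many of all genes were apart in this way is not given, so this is a description.

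In all, 10 of the 22 tRNAs fell in EBC-1 and none rose, where 21.6% of all genes were called lower. Besides MT-TP, MT-TD, MT-TV, MT-TL1 and MT-TM, they were MT-TW, MT-TK, MT-TE, MT-TS1 and MT-TQ. MT-TE, for glutamate, had 31, 17 and 20 reads in nc and 7, 10 and 6 in shSYK (adjusted p = 0.00352 by limma). MT-TW, for tryptophan, had 12, 4 and 8 reads in nc and 0, 1 and 0 in shSYK, MT-TK, for lysine, 15, 5 and 15 and 4, 4 and 4, MT-TS1, for serine, 10, 7 and 5 and 4, 0 and 0, and MT-TQ, for glutamine, 4, 2 and 2 and 2, 1 and 0. Several of these libraries were at or under the floor, where a fitted fold change depends on the pseudocount, and no fold is given. By limma-voom, 8 of 21 tested tRNAs were called lower, and MT-TK and MT-TQ were not called. The tRNAs with a mean of at least 10 reads that were not called in EBC-1 were MT-TN, MT-TC, MT-TY, MT-TG, MT-TR, MT-TH, MT-TS2 and MT-TL2, with log2 fold changes between -0.57 and 0.01. Without shSYK replicate 3, MT-TG, MT-TH and MT-TL2 were called lower (adjusted p = 0.00776, 0.0102 and 0.0161 by limma). MT-TK and MT-TQ lost their calls without 4 and 5 of the 6 libraries in turn, MT-TK keeping it without nc replicate 2 or shSYK replicate 2 and MT-TQ without shSYK replicate 1.

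In HCC827, 4 of 20 tested tRNAs fell and 2 rose, beside 20.7% and 17.2% of all genes. MT-TT, the tRNA for threonine, rose with MT-TP, from 19, 39 and 35 reads to 44, 58 and 61 (log2 fold change 0.74 ± 0.12 SE, adjusted p = 0.00334 by limma). The call of MT-TT was lost in the fit of all 18 libraries (adjusted p = 0.254), and that of MT-TP with the gene length trend removed (adjusted p = 0.174). MT-TT lies beside MT-TP on the opposite strand, downstream of MT-CYB. MT-TL1 fell, with 77, 131 and 91 reads in nc and 53, 78 and 81 in shSYK (log2 fold change -0.59 ± 0.15 SE, adjusted p = 0.0192 by limma). The other 3 that fell had few reads, MT-TW 6, 9 and 5 in nc and 0, 0 and 2 in shSYK, MT-TD 6, 13 and 5 and 4, 0 and 1, and MT-TK 2, 3 and 1 and 0, 1 and 0. MT-TL1, MT-TD and MT-TK were each not called without nc replicate 1 or 2 (adjusted p up to 0.0747, 0.105 and 0.0891 over all alternatives), nor was MT-TD without shSYK replicate 2 or 3 or MT-TK without shSYK replicate 1 or 3. MT-TY, the tRNA for tyrosine, had 36, 86 and 47 reads in nc and 93, 136 and 64 in shSYK and was called higher by limma-voom (adjusted p = 0.0396) but not by limma on FPKM (adjusted p = 0.093). MT-TG, MT-TR and MT-TH, for glycine, arginine and histidine, had 19, 31 and 23, 29, 47 and 18, and 14, 29 and 8 reads in nc and 17, 32 and 13, 9, 25 and 17, and 11, 23 and 6 in shSYK, and none of the 3 was called. MT-TG was called lower without shSYK replicate 2 and MT-TR without nc replicate 3 (adjusted p = 0.0193 and 0.0243 by limma).

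In PC-9, 2 of 12 tested tRNAs were called lower and none higher, beside 1.41% and 0.678% of all genes. MT-TY had 27, 36 and 32 reads in nc and 25, 22 and 18 in shSYK (log2 fold change -0.76 ± 0.10 SE, adjusted p = 0.0172 by limma), and by limma-voom it was not called (adjusted p = 0.172), nor was it by limma without nc replicate 3 or any 1 of the shSYK replicates. MT-TE had 3 reads in each nc library and 0 in each shSYK library, which is at the floor and was not tested by limma-voom. MT-TL1, with 46, 106 and 67 reads in nc and 62, 73 and 36 in shSYK, MT-TV, with 9, 31 and 14 and 4, 12 and 4, and MT-TT, with 27, 69 and 44 and 45, 43 and 36, were not called.

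**Figure D5:**
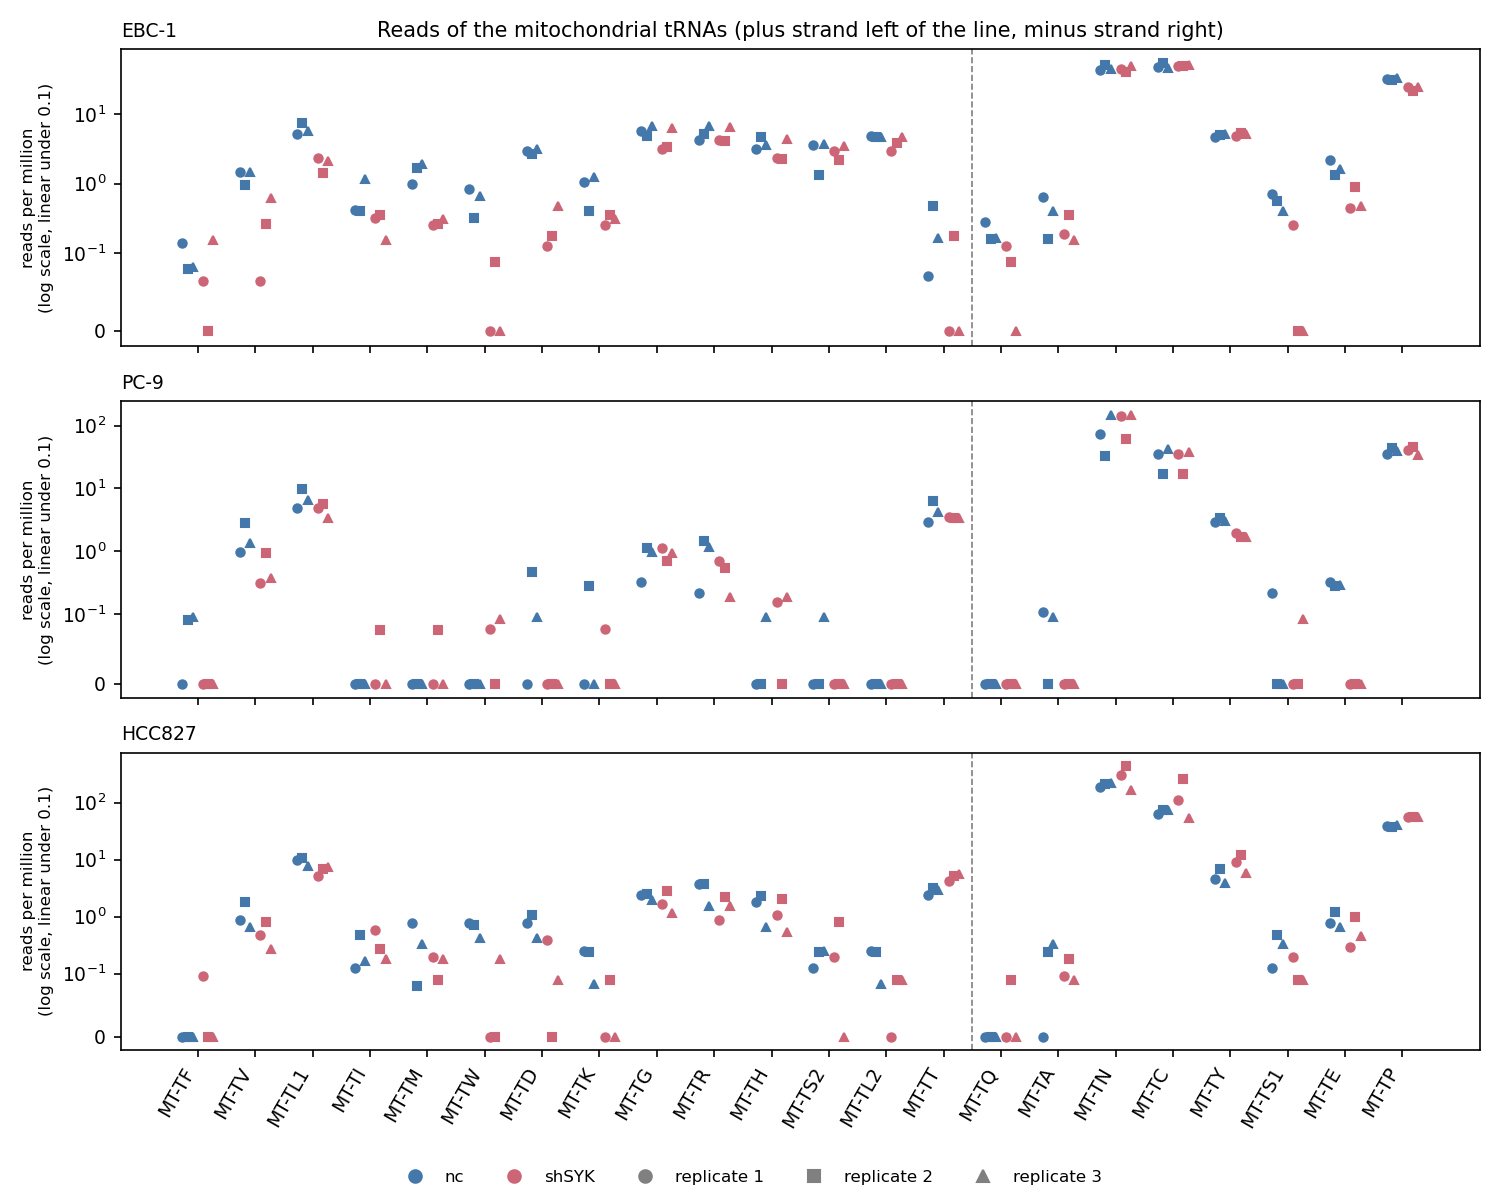
RPM, reads scaled to the library total on genes (y axis, log scale, linear under 0.1) of the 22 mitochondrial tRNAs in the nc and shSYK libraries of each line, with plus-strand genes left and minus-strand genes right of the dashed line. MT-TN, MT-TC and MT-TP stand above the others in every line. In EBC-1, MT-TV, MT-TL1, MT-TM, MT-TW and MT-TD on the plus strand are lower in the shSYK libraries without overlap. So are others, among them MT-TP and MT-TE on the minus strand.

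The plus-strand tRNAs together had 37.0 ± 3.57 RPM (reads scaled to the library total on genes) in EBC-1 nc and 22.6 ± 6.22 in shSYK, without overlap (exact permutation p = 0.1). The minus-strand tRNAs had 136 ± 7.18 and 124 ± 6.48, with overlap (exact permutation p = 0.2). Most minus-strand reads of EBC-1 were those of MT-TN and MT-TC, with 598 and 680 of 1844 in nc replicate 1, and neither was called. On this strand, MT-TP, MT-TE, MT-TS1 and MT-TQ were called lower in EBC-1 and the rest were not called. In PC-9, the plus-strand sum was 15.4 ± 6.59 in nc and 10.2 ± 1.52 in shSYK, and in HCC827 22.6 ± 5.14 and 17.7 ± 3.38, with overlap in both (exact permutation p = 0.3 and 0.2). The minus-strand sum was 160.0 ± 70.2 and 189.6 ± 54.5 in PC-9 and 324 ± 25.2 and 506 ± 242 in HCC827, also with overlap (exact permutation p = 0.7 and 0.4).

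Set against the reads of the genes on either side, MT-TV and MT-TL1 were lower in the shSYK libraries of all 3 lines. This comparison covers the 7 tRNAs that are the only plus-strand tRNA between consecutive plus-strand rRNA or mRNA genes. It was chosen after their reads had been seen, so it is given as values. MT-TV had 74.4, 38.1 and 69.4 reads per 100000 reads of the rRNAs in EBC-1 nc and 1.9992, 8.06 and 17.2 in shSYK. It had 13.3, 25.2 and 14.4 in PC-9 nc and 3.07, 8.47 and 4.46 in shSYK, and 12.5, 25.4 and 10.2 in HCC827 nc and 6.48, 9.76 and 3.45 in shSYK. These MT-TV values rest on few reads, in HCC827 on 7, 22 and 8 in nc and 5, 9 and 3 in shSYK. By limma, MT-TV was called in neither PC-9 nor HCC827. MT-TL1 had 232 ± 17.1 reads per 100000 of MT-RNR2 and MT-ND1 in EBC-1 nc and 58.3 ± 15.1 in shSYK, 76.4 ± 9.50 and 49.4 ± 5.95 in PC-9, and 132 ± 17.6 and 83.2 ± 12 in HCC827. The rRNAs are in these denominators. Both rose in EBC-1, MT-RNR1 rose in HCC827, and in PC-9 MT-RNR1 was higher without overlap or a call. MT-TW, MT-TD and MT-TK also rest on few reads. MT-TW did not overlap in EBC-1 and HCC827, with 6.04 and 7.72 reads per 100000 in nc and 0.365 and 0.588 in shSYK. In PC-9, MT-TW overlapped, with 0 in nc and 1.28 in shSYK. MT-TD was lower without overlap in EBC-1 only (25.4 ± 3.45 and 3.00 ± 2.31), and MT-TK in HCC827 only (5.13 ± 2.43 and 0.731 ± 1.27). MT-TG, between MT-CO3 and MT-ND3, and MT-TR, between MT-ND3 and MT-ND4L, overlapped between groups in all 3 lines. In EBC-1, MT-TG had 296 ± 68.2 reads per 100000 in nc and 365 ± 156 in shSYK, and MT-TR 887 ± 221 and 1216 ± 273.

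The effects were compared between lines in a single fit of all 18 libraries, where 35 mitochondrial genes were tested. Between EBC-1 and PC-9, 4 of the 15 mRNAs and rRNAs differed (MT-CYB, MT-ND4, MT-ND4L and MT-RNR1), and 19.8% of all 12672 genes did. Between EBC-1 and HCC827, 6 of the 15 differed (those 4 and MT-CO1 and MT-ND3), with 21.8% of all genes. TPM rescaling left 1 of the 4 against PC-9, MT-RNR1, and 4 of the 6 against HCC827, without MT-CO1 and MT-ND4L (adjusted p = 0.107 and 0.0541). A pseudocount of 0.1 also left 4 of the 6, without MT-CO1 and MT-ND3 (adjusted p = 0.07005 and 0.0501), and adjustment over all pairs of lines together left 5, without MT-CO1 (adjusted p = 0.0545). Between PC-9 and HCC827, none of the 15 passed the limma test, with 7.5% of all genes called, which does not show that they responded alike. Of these 15, 1 had an unadjusted p under 0.05, and the share of all genes with such a p is not given. MT-CO3, called in each line, had differences of -0.18, -0.35 and -0.17 (EBC-1 minus PC-9, EBC-1 minus HCC827 and PC-9 minus HCC827, limma adjusted p = 0.436, 0.121 and 0.621), with standard errors of 0.16. MT-ATP6 had differences of 0.02, -0.09 and -0.11, with standard errors of 0.17.

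Nuclear genes for mitochondrial gene expression made a list of 56. Calls of the nuclear genes named here and in the next paragraphs come from the main fit only and were not checked under the alternative settings. Of 55 tested in EBC-1, 21 rose and 2 fell, beside the 23.1% and 21.6% of all genes, with a median log2 fold change of 0.23. In HCC827, 11 of 53 rose and 7 fell, beside 17.2% and 20.7%, and in PC-9 none of 51 was called by limma. In PC-9, 5 of the 51 had an unadjusted p under 0.05 by limma, beside 1881 of all 12089 genes tested. In EBC-1, the genes for RNA processing had 7 of 11 members called higher, RNA stability 5 of 8 and transcription 4 of 9. In HCC827, RNA stability had 5 of 8 called higher, processing 1 higher and 2 lower of 10 tested, and transcription 1 lower of 8.

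HSD17B10, a subunit of the mitochondrial RNase P that cuts the 5′ ends of tRNAs, had the largest rise of the list in EBC-1 and HCC827. Its level went from 17.6 ± 1.06 to 48.7 ± 3.53 FPKM in EBC-1 (log2 fold change 1.42 ± 0.08 SE, adjusted p = 5.95e-05 by limma) and from 54.0 ± 8.49 to 99.7 ± 3.15 in HCC827 (log2 fold change 0.89 ± 0.11 SE, adjusted p = 0.00114 by limma). In PC-9, it had 39.5 ± 13.3 FPKM in nc and 64.4 ± 8.06 in shSYK, without overlap, and did not pass the test (log2 fold change 0.73, adjusted p = 0.175 by limma). The other subunits of this enzyme, named after their values were seen, are TRMT10C and KIAA0391, the nuclease. Both rose in EBC-1, with log2 fold changes of 0.68 and 0.45 (limma adjusted p = 0.00197 and 0.0072). In PC-9 and HCC827, TRMT10C had 0.01 and -0.17 without a call, and KIAA0391 was under the filter. ELAC2, which cuts the 3′ ends of tRNAs, was not called in any line, with log2 fold changes of 0.20, 0.11 and -0.08 in EBC-1, PC-9 and HCC827.

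Of the transcription genes, POLRMT, the polymerase, had 79.0 ± 9.43 FPKM in EBC-1 nc and 73.8 ± 15.4 in shSYK (adjusted p = 0.596 by limma), and in HCC827 it fell from 30.1 ± 1.99 to 23.1 ± 1.68 (log2 fold change -0.37, adjusted p = 0.00736 by limma). TFAM, which packs and bends mitochondrial DNA, TFB2M, which opens the promoter, and TEFM, an elongation factor, rose in EBC-1, with log2 fold changes of 0.49, 0.59 and 0.54 (limma adjusted p = 0.00298, 0.00494 and 0.00543). MTERF1, which binds within the gene of MT-TL1, had the second largest rise of the list there (log2 fold change 0.83, adjusted p = 0.000746 by limma), followed by FASTKD2, an RNA-binding protein of the 16S rRNA (0.74, adjusted p = 0.00185 by limma). TFAM, TFB2M and TEFM were not called in PC-9 or HCC827.

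Of the stability genes, LRPPRC and SLIRP, partners that bind mitochondrial mRNAs, rose in EBC-1 and HCC827. LRPPRC had log2 fold changes of 0.50 and 0.41 (limma adjusted p = 0.0289 and 0.00213) and SLIRP of 0.45 and 0.63 (limma adjusted p = 0.0037 and 0.000826). In PC-9, their values were 0.28 and 0.32, without a call. REXO2, an oligoribonuclease, rose in HCC827 (0.48, adjusted p = 0.00179 by limma). The 2 genes of the list that fell in EBC-1 were MRM1, an rRNA methyltransferase (-0.74, adjusted p = 0.0051 by limma), and MYC, a transcription factor (-0.62, adjusted p = 0.00317 by limma). In HCC827, the largest falls were those of FASTK (-0.38, adjusted p = 0.0027 by limma), POLRMT and PPRC1, a coactivator (-0.33, adjusted p = 0.00489 by limma).

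The nuclear subunits of the same complexes made a list of 73. In EBC-1, 20 of 70 tested rose and 11 fell (28.6 and 15.7%, beside 23.1 and 21.6% of all genes), with a median log2 fold change of 0.10. In HCC827, 6 of 68 rose and 7 fell (8.82 and 10.3%, beside 17.2 and 20.7%), and in PC-9 1 of 69 fell and none rose (1.45%, beside 1.41% lower and 0.678% higher). The PC-9 gene was ATP5J2, a membrane subunit of ATP synthase, named here after its values were seen. It fell in all 3 lines, with log2 fold changes of -0.48, -1.13 and -1.53 in EBC-1, PC-9 and HCC827 (limma adjusted p = 0.00186, 0.013 and 1.77e-05).

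Nuclear copies of mitochondrial DNA can take reads from the mitochondrial genes or give reads to them. The pseudogenes of mitochondrial genes outside MT held reads equal to 0.383 to 0.824% of the mitochondrial reads per library. Those with most reads in each line were MTATP6P1, MTND2P28 and MTCO1P12, which lie on chromosome 1 (MTATP6P1 from 633696 to 634376). MTATP6P1 had 1160, 1226 and 992 reads in EBC-1 nc and 1111, 758 and 916 in shSYK, beside 10896 to 17293 on MT-ATP6. The windows of 100 bases in each mRNA and rRNA gene were looked up in these pseudogenes and the 1000 bases on each side of them. The rest of the nuclear genome was not searched. The share of windows found there unchanged was 27.9% for MT-CO1, 26.1% for MT-ND2, 11.9% for MT-ATP6 and 10.97% for MT-ND1. It was 7.25% for MT-RNR1, 4.67% for MT-CO3 and 2.39% for MT-CO2, and 0 for the other mRNAs and MT-RNR2. MT-CYB, MT-ND3, MT-ND4 and MT-ND4L, which fell in EBC-1, had no such window in the stretches searched.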

How the data were processed

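The authors extracted total RNA with TRIzol from 18 cell line samples, had it sequenced on an Illumina HiSeq, and deposited 1 table of FPKM values per line. The submitters' processing notes name CASAVA and HISAT2 and the builds GRCh37, GRCh38, hg19 and hg38, without roles. The counting tool, annotation, use of strand and selection of RNA are not given in the sources used here. Gene positions in the tables were those of hg38.

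FPKM times gene length came in steps of 1 read in each library, from which whole reads were recovered to within 3.21e-05 of a whole number. The total per library, 7920099 to 15729103 reads, sets the counting error, and 95% Wilson intervals cover counting error only. For each line, 3 shSYK and 3 nc libraries were compared with limma 3.58.1 (R 4.3.3) on log2(FPKM + 1), with a variance trend, over genes with a mean of at least 1 FPKM. P-values were adjusted by Benjamini-Hochberg over all genes tested, and calls were made at an adjusted p under 0.05. Fold changes are on this log2 scale, which understates those of low genes. Effects were compared between lines in 1 fit of 18 libraries. Class shares and ratios were compared by exact two-sided permutation tests. Groups of 3 libraries that do not overlap have an exact two-sided permutation p of 0.1. The share of all genes without overlap is not given, so lack of overlap is a description of the genes named. Alternative settings were limma-voom on the recovered reads, other pseudocounts (0.1), filters (none, 5 FPKM) and scalings, a replicate block, a gene length trend, and leaving out each replicate. For single genes, they were read for the mitochondrial genes only. Leaving out replicates for the ratios and composition was added after seeing the data. Scripts were tested on simulated data. Python 3.11.15, numpy 2.4.6, pandas 2.3.3, scipy 1.17.1 and matplotlib 3.10.9 were used.

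All mitochondrial mRNAs and rRNAs are named, tRNAs where they had a mean of at least 10 reads per library in a line or were called, and others by range. Of the nuclear genes for mitochondrial gene expression, POLRMT, TFAM, TEFM, TFB2M, LRPPRC, SLIRP and the 3 called genes with the largest rise and fall per line are named, and of nuclear pseudogenes the 3 with most reads. The members and lists were chosen with earlier results of these data known. Positions were checked against GENCODE release 44, and sequences were read from hg38, whose mitochondrial chromosome has 16569 bases.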

Additional observations from a re-analysis of the deposited data

Results flagged for a closer look

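The following mitochondrial genes had effects of shSYK that differed between lines by the limma test of the difference itself (adjusted p under 0.05, 3 libraries per group). Values are differences of log2 fold changes. MT-RNR1 rose more in EBC-1 than in PC-9, by 0.91 ± 0.11 SE (adjusted p = 5.61e-05), and than in HCC827, by 0.82 ± 0.11 (adjusted p = 0.000103). MT-CYB was lower in EBC-1 by -0.60 ± 0.16 against PC-9 (adjusted p = 0.0158) and by -0.69 ± 0.16 against HCC827 (adjusted p = 0.00593). MT-ND4 differed by -0.67 ± 0.19 (adjusted p = 0.0235) and -0.84 ± 0.19 (adjusted p = 0.00576) in the same 2 comparisons, and MT-ND4L by -0.67 ± 0.21 (adjusted p = 0.0337) and -0.77 ± 0.21 (adjusted p = 0.0143). Against HCC827 alone, MT-CO1 differed by -0.62 ± 0.21 (adjusted p = 0.0441) and MT-ND3 by -0.48 ± 0.15 (adjusted p = 0.0293). The MT-CO1 difference was not called under any of the 3 alternatives (adjusted p = 0.0545 over all pairs of lines, 0.107 with TPM rescaling and 0.07005 with a pseudocount of 0.1), nor that of MT-ND3 with a pseudocount of 0.1 (adjusted p = 0.0501). With TPM rescaling, MT-CYB, MT-ND4 and MT-ND4L were not called against PC-9 (adjusted p = 0.133, 0.131 and 0.152), nor MT-ND4L against HCC827 (adjusted p = 0.0541).

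Of the tRNAs, MT-TP had effects of opposite sign in EBC-1 (lower) and HCC827 (higher), which differed by -0.97 ± 0.13 (adjusted p = 5.6e-05), and it differed by -0.57 ± 0.13 between EBC-1 and PC-9 (adjusted p = 0.00512). MT-TL1 differed by -1.15 ± 0.32 (adjusted p = 0.0192) against PC-9 and -1.11 ± 0.32 (adjusted p = 0.0209) against HCC827, the first of which was not called with TPM rescaling (adjusted p = 0.0555). MT-TY differed by -1.46 ± 0.30 between PC-9 and HCC827 (adjusted p = 0.00527). The other differences rest on tRNAs with few reads in at least 1 line, where the fitted value depends on the pseudocount and is no bound. They were MT-TM, -2.60 (EBC-1 minus PC-9, adjusted p = 0.0107), MT-TW, -3.66 (EBC-1 minus PC-9, adjusted p = 0.00167) and 3.61 (PC-9 minus HCC827, adjusted p = 0.00348), MT-TT, -2.10 (EBC-1 minus HCC827, adjusted p = 0.0276), and MT-TE, -1.69 (PC-9 minus HCC827, adjusted p = 0.0352).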

How the results depend on the processing

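Counts of genes called moved as follows. Without the filter, mRNA calls went from 12 to 5 in EBC-1, 1 to 0 in PC-9 and 2 to 0 in HCC827, rRNA calls from 2 to 1 in EBC-1 and 1 to 0 in HCC827, tRNA calls from 10 to 6 in EBC-1 and 6 to 3 in HCC827, and calls over all genes of PC-9 from 253 to 47. More genes were tested without it. With a filter of 5 FPKM, all genes called in EBC-1 went from 5562 to 3579 with fewer genes tested, and PC-9 tRNA calls from 2 to 1, as also with the length trend removed. Quantile normalization, which fixes the top-ranked MT-CO1 at 0 in EBC-1, left 5 mRNA calls there, gave 1 in HCC827 (MT-ND3, with MT-CO3 and MT-ATP6 no longer called) and gave 505 calls over all genes of PC-9. It reversed MT-ND6 (0.068), MT-ND5 (0.037), MT-ND1 (0.046) and MT-TC (0.37) in EBC-1. TPM rescaling gave 1 mRNA call in HCC827, 491 calls over all genes of PC-9 and 1 of 15 differences between EBC-1 and PC-9 in place of 4 (4 of 6 against HCC827), and an equal sum of nuclear genes 1 and 517. Without the variance trend, HCC827 kept 1 mRNA call. By limma-voom, HCC827 had 4 mRNA calls and PC-9 0 tRNA calls. The fit of 18 libraries gave PC-9 2 mRNA calls, 1 rRNA call and 1354 over all genes. Causes not given here were not tested.

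Leaving out 1 replicate gave 8 to 11 mRNA calls in EBC-1, 0 to 2 in PC-9 and 0 to 3 in HCC827, tRNA calls of 8 to 11, 1 to 3 and 4 to 8, and calls over all genes of 3761 to 6309, 7 to 621 and 3362 to 3949. The lowest count of PC-9, 7, was without shSYK replicate 1 and the highest, 621, without nc replicate 1. With a replicate block, PC-9 had 0 mRNA calls, and HCC827 1 mRNA and 10 tRNA calls. Correlations of libraries with equal numbers ran from -0.22 to 0.33, so the numbers were not taken as pairs.

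Of 1403 alternative values for 83 pairs of gene and line, 1268 kept their side of the threshold, 49 of them with a change of sign where neither value passed the test. A call was lost in 107 and gained in 24, and in the 4 reversals given above 1 of the values passed the test. Of the 81 alternative values of the class shares, 54 came from leaving out 1 replicate. So did 72 of 84 for the ratios and 234 of 273 for the mRNA composition. Such a value cannot move by more than the spread between replicates, and a replicate block leaves the difference unchanged. These values therefore had to stay within the spread, and no conclusion on the ratios is drawn. Taken as percent of nuclear protein-coding reads or of summed FPKM, the class shares stayed within the spread. Of the other values of the mRNA composition, 35 stayed within it and 4 did not. Depth limits the tRNAs, of which 14 had a mean of at least 10 reads per EBC-1 library (PC-9 7, HCC827 9).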
